A study of Homo sapiens with 6 samples.

Results

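The 6p22 window is a stretch of the short arm of human chromosome 6 known for the largest cluster of histone genes and a large cluster of tRNA genes. It was examined here for ubiquitylated and total H2A.Z in HEK293T, a widely used cell line of human embryonic kidney origin. Its members were chosen by position alone. The peaks of the authors' 2 lists were merged where they overlapped or touched, and merged regions with a midpoint between 25.7 and 28.9 Mb of chromosome 6 (hg19) were kept. This gave 331 regions of 198179 in the whole series. They covered 115 kb, or 3.58% of the 3.2 Mb window.

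The 6 samples fell into 3 groups of 2, listed here as ubiquitylated H2A.Z, total H2A.Z and histone H3. All came from cells transfected with H2A.Z-1 fused at its C-terminus to a Flag tag and the biotin ligase BirA, and, in the proportion of 3 to 1 by plasmid, with ubiquitin that had the AviTag peptide at its N-terminus. Cells were collected 48 hours later, and micrococcal nuclease was applied to their nuclei for 30 minutes. BirA biotinylates the AviTag, so streptavidin recovered nucleosomes with tagged ubiquitin near the tagged histone, the Flag antibody recovered all nucleosomes with the tagged histone, and an H3 antibody recovered nucleosomes in general. The tagged histone was introduced by transfection, and the lists therefore describe the fusion protein and not H2A.Z made from the cells' own genes. The groups differ in both reagent and ubiquitylation, and the effects of these cannot be told apart. The H3 samples have no list of their own, but their labels name both peak lists. The sources used here do not say whether H3 was the control against which peaks were called, so a peak may or may not be an excess over H3.

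The variant H2A.Z takes the place of histone H2A in some nucleosomes, often beside promoters, and a share of it carries ubiquitin near its C-terminus, a form that has been linked to silent chromatin. Histone genes of the 6p22 cluster are transcribed by RNA polymerase II in large amounts when DNA is replicated. The tRNA genes between them are transcribed by RNA polymerase III from promoters inside the genes. The window is therefore dense in short genes of unrelated kinds, whose transcription was not measured here.

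In the RefSeq gene table (GRCh38.p14), 341 genes follow each other from SLC17A1 to TRIM27, the genes taken here as the ends of the cluster. Of these, 55 are protein-coding histone genes (6 of H1, 12 of H2A, 15 of H2B, 10 of H3 and 12 of H4) and 135 are tRNA genes. Apart from H2AC1 and H2BC1, which lie among the 4 SLC17A genes of phosphate and organic anion transporters, the histone genes form 3 blocks. From H1-1 to H4C8 there are 32 histone genes, from H2BC11 to H2AC12 there are 5, and from H2BC13 to H2BC17 there are 16. None of the blocks holds a tRNA gene in this table. The tRNA genes number 47 between the first and second block, 51 between the second and the last, and 37 between the last block and TRIM27. The first of these intervals also holds the 6 protein-coding BTN genes, which encode butyrophilins of the immunoglobulin superfamily. The table has another genome build than the lists, so gene names were not laid on the regions, and which region lies on which gene was not analysed here.

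Regions were dense in the window. There were 103 regions per Mb, against 34.4 per Mb in the telomeric flank of the same length, 110 per Mb in the centromeric flank of the same length, and 60.5 per Mb between the first and last region of the rest of chromosome 6. Consecutive regions were separated by a median of 4104.5 bp, and 72 had the next region less than 1 kb away. The widest empty interval, chr6:25882666-25992093, measured 109 kb. At the telomeric boundary the first region inside was chr6:25706831-25707144, and the next outside was chr6:25679651-25679831. At the centromeric boundary the last region inside was chr6:28895127-28895470, and the next outside was chr6:28902619-28902759. None of these 4 regions was in a differential list.

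Total H2A.Z peaks outnumbered ubiquitylated ones. The window held 179 ubiquitylated peaks over 63.7 kb and 264 total H2A.Z peaks over 85.7 kb. Of the ubiquitylated peaks, 112 (62.6%, Wilson 95% interval 55.3 to 69.3%) lay in regions with peaks of both lists. Among total H2A.Z peaks 111 did (42.0%, 36.2 to 48.1%). The 2 lists shared 34.7 kb of the 115 kb they covered together, a Jaccard index of 0.303. Intervals on shares cover counting error only and take regions as independent, which was not tested. Neither counts nor per-library values accompany the lists. Read depth is therefore unknown, and replicate spread is carried by the authors' IDR and FDR alone.

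By peak class, 67 members (20.2%, interval 16.3 to 24.9%) had a ubiquitylated peak only, 153 (46.2%, 40.9 to 51.6%) a total H2A.Z peak only, and 111 (33.5%, 28.7 to 38.8%) peaks of both lists. Outside the window these classes made up 28.9%, 29.1% and 42.0% of 197848 regions. In the rest of chromosome 6 they made up 24.8%, 33.6% and 41.6% of 10153 regions. The centromeric flank resembled the window, with 27.1%, 41.3% and 31.6% of 351 regions. In the telomeric flank the shares were 30.9%, 34.5% and 34.5% of 110 regions. Differences between the window and other stretches are descriptions and were not tested, since the files hold no values over samples from which a test could be made.

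Total H2A.Z was the higher form at most differential regions of the window. In the authors' deposited table, 23 of the 331 members (6.95%, interval 4.67 to 10.2%) were higher in ubiquitylated H2A.Z, where 9.39% of all regions of the series were. There, 86 members (26.0%, 21.6 to 31.0%) were listed as higher in total H2A.Z, against 12.1% of all regions. The 109 called members together made up 32.9% of the window, against 21.5% of all regions, and the other 222 were in neither differential list. Calls towards ubiquitylated H2A.Z were thus 21.1% of the called members (14.5 to 29.7%). They were 43.8% of called regions outside the window and 32.2% in the rest of chromosome 6. The excess over the background lay in the regions higher in total H2A.Z. Of these 86 members, 76 had a total H2A.Z peak only, so calls and peak classes are not independent and the imbalance of calls partly restates that of classes. Those higher in ubiquitylated H2A.Z were about as frequent as in the rest of chromosome 6, where 6.58% of regions were.

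The neighbouring stretches of 6p showed a like balance. In the centromeric flank, 29 of 351 regions (8.26%) were called towards ubiquitylated H2A.Z and 80 (22.8%) towards total. Calls towards ubiquitylated H2A.Z were thus 26.6% of the called ones there (interval 19.2 to 35.6%). In the telomeric flank 6 of 110 regions (5.45%) were called towards ubiquitylated H2A.Z and 21 (19.1%) towards total. Calls towards ubiquitylated H2A.Z were thus 22.2% of only 27 called ones there (10.6 to 40.8%). The intervals of the window and of both flanks overlapped. Calls towards total H2A.Z were the more numerous in both flanks and in the whole series, with 23960 regions against 18614 in the series. Their preponderance was thus not limited to the window.

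**Figure D1:**
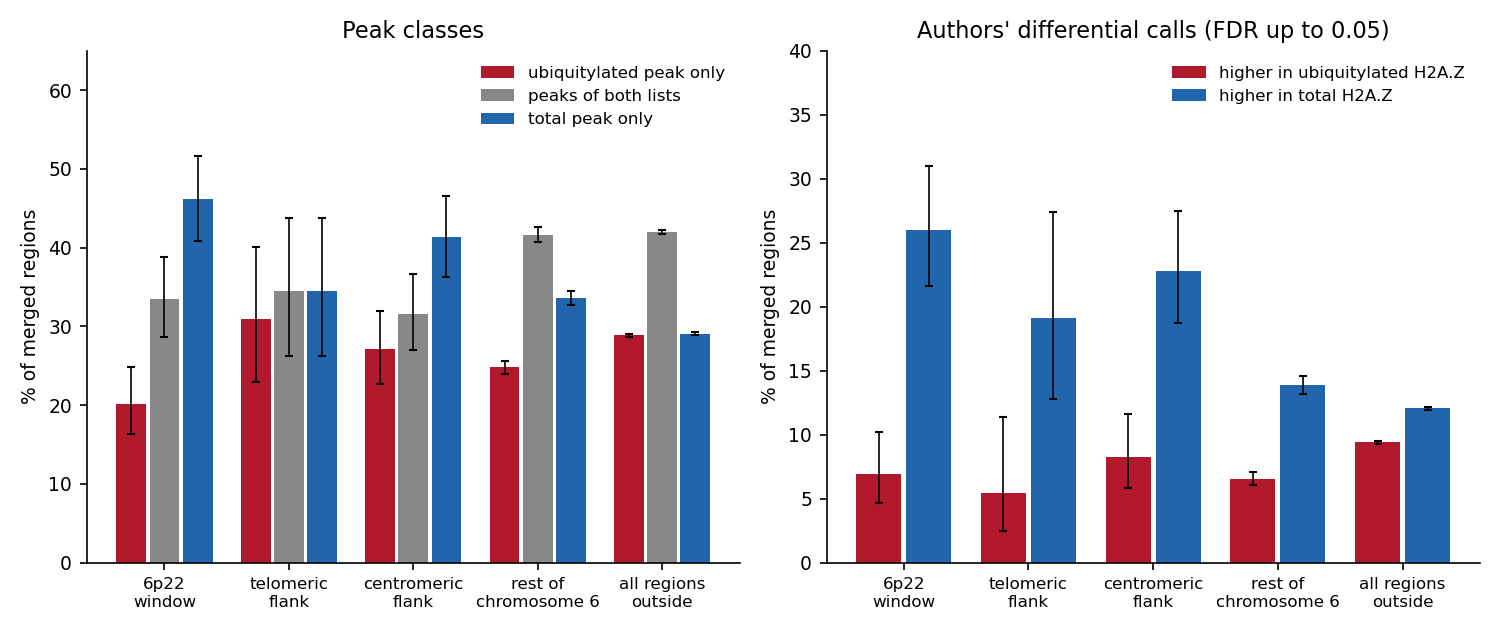
Percent of merged regions in each peak class (left) and in each of the authors' differential lists (right) for the 6p22 window, its flanks of the same length, the rest of chromosome 6 and all regions outside the window, with Wilson 95% intervals as error bars. Regions with a total H2A.Z peak only made up 46.2% of the window against 29.1% outside, and those higher in total H2A.Z 26.0% against 12.1%. These contrasts are not independent, as 76 of the 86 members higher in total H2A.Z had a total H2A.Z peak only.

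The imbalance remained under stricter rules. With an FDR under 0.01 in the authors' deposited table, 11 members (3.32%) were higher in ubiquitylated H2A.Z, against a background of 5.16%, and 58 (17.5%) were higher in total H2A.Z, against 7.09%. With changes of at least 2-fold, the authors' deposited table left 1 member higher in ubiquitylated H2A.Z (background 1.47%) and 33 higher in total H2A.Z (9.97% of members, background 2.39%). Calls towards ubiquitylated H2A.Z were thus 15.9% (interval 9.14 to 26.3%) and 2.94% (0.521 to 14.9%) of the calls left. In the whole series these shares were 42.1% and 38.0%. The 15.9% lay inside the interval of the 21.1% found without these rules, 14.5 to 29.7%, and the 2.94% lay below it. The stricter calls are a part of the same calls, so they are no separate support. The fold changes are the authors' own. No base is stated for them, and log2 was assumed. Their zero point depends on how the pull-downs were normalized, a step not given in the sources used here.

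Among called members, changes towards total H2A.Z had the larger median. These members had already passed the authors' FDR, so their size is no separate support for the counts. The authors' deposited table gave members higher in ubiquitylated H2A.Z a median log2 change of 0.63 (quartiles 0.53 and 0.77, range 0.43 to 1.56), against 0.68 outside the window. Members higher in total H2A.Z had a median of -0.92 (quartiles -1.14 and -0.76, range -2.10 to -0.38) in the authors' deposited table, against -0.76 outside the window and -0.78 in the rest of chromosome 6.

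Most called members had a peak of 1 list alone, and 17 of the 109 had peaks of both lists. In the whole series 11215 of the 42574 called regions had peaks of both lists, so most called regions there had a peak of 1 list alone too. Of the 67 members with a ubiquitylated peak only, 16 (23.9%, interval 15.3 to 35.3%) were called towards ubiquitylated H2A.Z and none towards total, and the background for such regions was 23.8%. Of the 153 members with a total H2A.Z peak only, none were called towards ubiquitylated H2A.Z and 76 (49.7%, 41.9 to 57.5%) towards total, and the background was 30.5%. A peak in the total list alone thus came with a called difference more often than in the series at large, whereas a peak in the ubiquitylated list alone did so at the background share. The flanks had raised shares too, 39.5% of 38 regions with a total H2A.Z peak only on the telomeric side (25.6 to 55.3%) and 44.1% of 145 on the centromeric side (36.3 to 52.3%), and these intervals overlapped that of the window. Calls opposite to the only list with a peak were rare in the series as well, at 0.127% of regions with a ubiquitylated peak only and 0.0831% of those with a total H2A.Z peak only.

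Of the 111 members where both lists had a peak, 7 (6.31%) were called towards ubiquitylated H2A.Z (background 5.97%) and 10 (9.01%) towards total (background 7.52%). Both shares were near the background. The other 94 (84.7%) were in neither differential list. The authors' deposited table gave the 10 called towards total H2A.Z a median of -0.80 on the log2 scale (range -0.92 to -0.38), against -0.56 for such regions outside the window. The 7 higher in ubiquitylated H2A.Z had a median of 0.53 (range 0.43 to 0.82) in the authors' deposited table, against 0.51 outside. Both groups are small.

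The region of lowest FDR in the window was chr6:27440278-27440986, 709 bp wide, with a total H2A.Z peak only. The authors' deposited table gave it a log2 fold change of -1.51 and an FDR of 1e-12. It stood apart, 82.7 kb from the previous member and 22.1 kb from the next. The second, chr6:28602548-28603433, was 886 bp wide and the widest of all members higher in total H2A.Z, with -1.22 and an FDR of 1.5e-11 in the authors' deposited table. The authors' deposited table then lists chr6:27720432-27721113 with -1.22 (FDR 6.2e-09), chr6:28179642-28180324 with -1.28 (FDR 1.6e-08) and chr6:27740215-27740622 with -1.46 (FDR 2e-08). The remaining 3 of the 8 lowest were chr6:26285384-26285786, chr6:28831767-28832317 and chr6:28574249-28574833, with FDR values of 2.8e-08, 9.5e-08 and 1.4e-07 in the authors' deposited table. All 8 had a total H2A.Z peak only, and they were spread over 6 of the 16 bins of 200 kb into which the window was divided.

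Several of the largest changes towards total H2A.Z were in narrow regions. The authors' deposited table gave a log2 fold change of -2.10 (FDR 5e-07) to chr6:27156419-27156605, which is 187 bp wide, about the length of DNA on a single nucleosome with its linker. Then came chr6:27181994-27182217 (-1.62, FDR 2e-06, 224 bp) and chr6:28192920-28193349 (-1.54, FDR 1.5e-06, 430 bp) in the authors' deposited table. The 709 bp region at chr6:27440278-27440986 ranked after these, ahead of chr6:27046516-27046764 with -1.48 (FDR 4.3e-05, 249 bp) in the authors' deposited table.

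The calls towards ubiquitylated H2A.Z were weaker. The lowest FDR in this direction was 8.1e-05 in the authors' deposited table, at chr6:27839692-27840068 (log2 fold change 0.94, 377 bp). The second was chr6:26017482-26018277 (0.79, FDR 0.00015, 796 bp) in the authors' deposited table. Both had a ubiquitylated peak only. The largest change, 1.56 (FDR 0.00048) in the authors' deposited table, belonged to chr6:28280901-28281091, which is 191 bp wide and had an IDR of 0.043, near the authors' limit of 0.05. The IDR (irreproducible discovery rate) measures how poorly a peak repeats between replicates, so this peak was among the least repeatable of those listed.

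The other 5 of the 8 members of lowest FDR in this direction were wide. They were chr6:27348725-27349536 (812 bp), chr6:27934573-27935193 (621 bp), chr6:28607433-28608092 (660 bp), chr6:27795726-27796239 (514 bp) and chr6:26613936-26614915 (980 bp). Their log2 changes lay between 0.63 and 0.82 in the authors' deposited table, with FDR values from 0.0005 to 0.00099. Those at chr6:27348725-27349536, chr6:28607433-28608092 and chr6:27795726-27796239 had peaks of both lists. The region chr6:27348725-27349536 had IDR values of 0.0451 in the ubiquitylated and 0.0294 in the total list, so its peaks repeated poorly in both. Outside these 8, chr6:26197070-26197482 also had one of the 5 largest changes in this direction, 0.88 (FDR 0.0015) in the authors' deposited table.

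**Figure D2:**
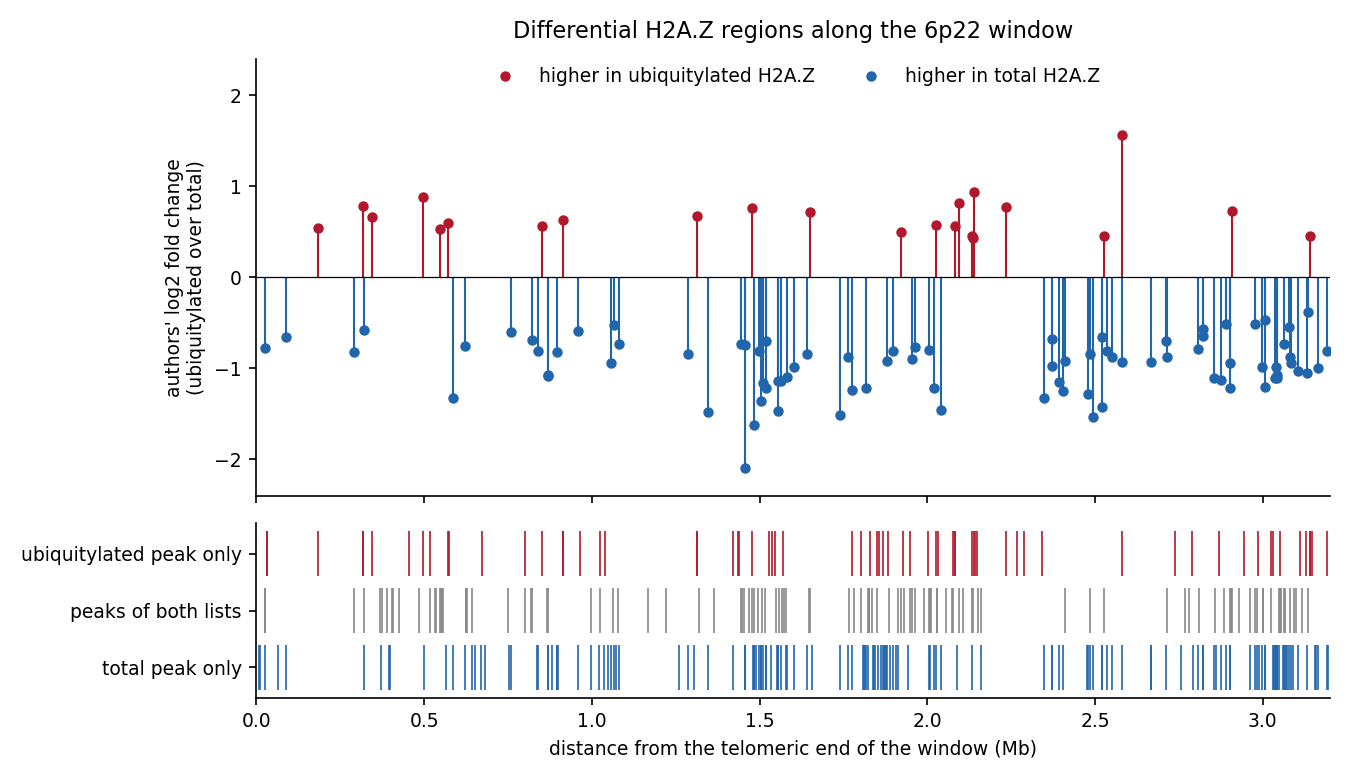
Authors' log2 fold change of ubiquitylated over total H2A.Z for the 109 called members (top) and the position of all 331 members by peak class (bottom), against the distance in Mb from the telomeric end of the window. Of the calls, 23 lie above 0 and 86 below, and the largest fall, -2.10, lies about 1.5 Mb from that end.

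The numbers of calls in the 2 directions varied along the window. Calls towards ubiquitylated H2A.Z were fewer than those towards total H2A.Z in 13 of the 16 bins of 200 kb, more in 2 and equal in 1. The bins held 8 to 47 members with a median of 13.5. The bin from 28.7 to 28.9 Mb had the most members, 47, with 1 call towards ubiquitylated H2A.Z beside 15 towards total, the most of any bin. The bin from 27.9 to 28.1 Mb had the fewest members, 8, none of them with peaks of both lists. No call towards ubiquitylated H2A.Z fell in 3 bins, those from 26.3 to 26.5, 26.7 to 26.9 and 28.3 to 28.5 Mb. These bins held only 13, 13 and 10 members. Over the window 6.95% of members were called in this direction, and at that share bins of this size can lack such calls.

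The bins of 200 kb in which calls towards total H2A.Z did not prevail lay in 2 stretches. This depended on bin size. Of 8 bins of 400 kb, 6 had more calls towards total H2A.Z and none had more towards ubiquitylated H2A.Z. From 27.7 to 27.9 Mb, 6 of 32 members were called towards ubiquitylated H2A.Z and 3 towards total. From 25.9 to 26.3 Mb, 5 of 31 were called towards ubiquitylated H2A.Z and 3 towards total. Together these 3 bins held 63 members and 11 of the window's 23 calls towards ubiquitylated H2A.Z, which were 64.7% of their 17 calls (interval 41.3 to 82.7%). The 43.7% of all called regions of the series lies inside this interval. In the other 13 bins 12 members were called towards ubiquitylated H2A.Z and 80 towards total, which put 13.0% of 92 calls on the ubiquitylated side (7.62 to 21.4%). The stretches were picked with their values known, so this contrast is a description without a test. Among their members, 18 had a ubiquitylated peak only, 15 a total H2A.Z peak only and 30 peaks of both lists, against 49, 138 and 81 in the other 13 bins.

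**Figure D3:**
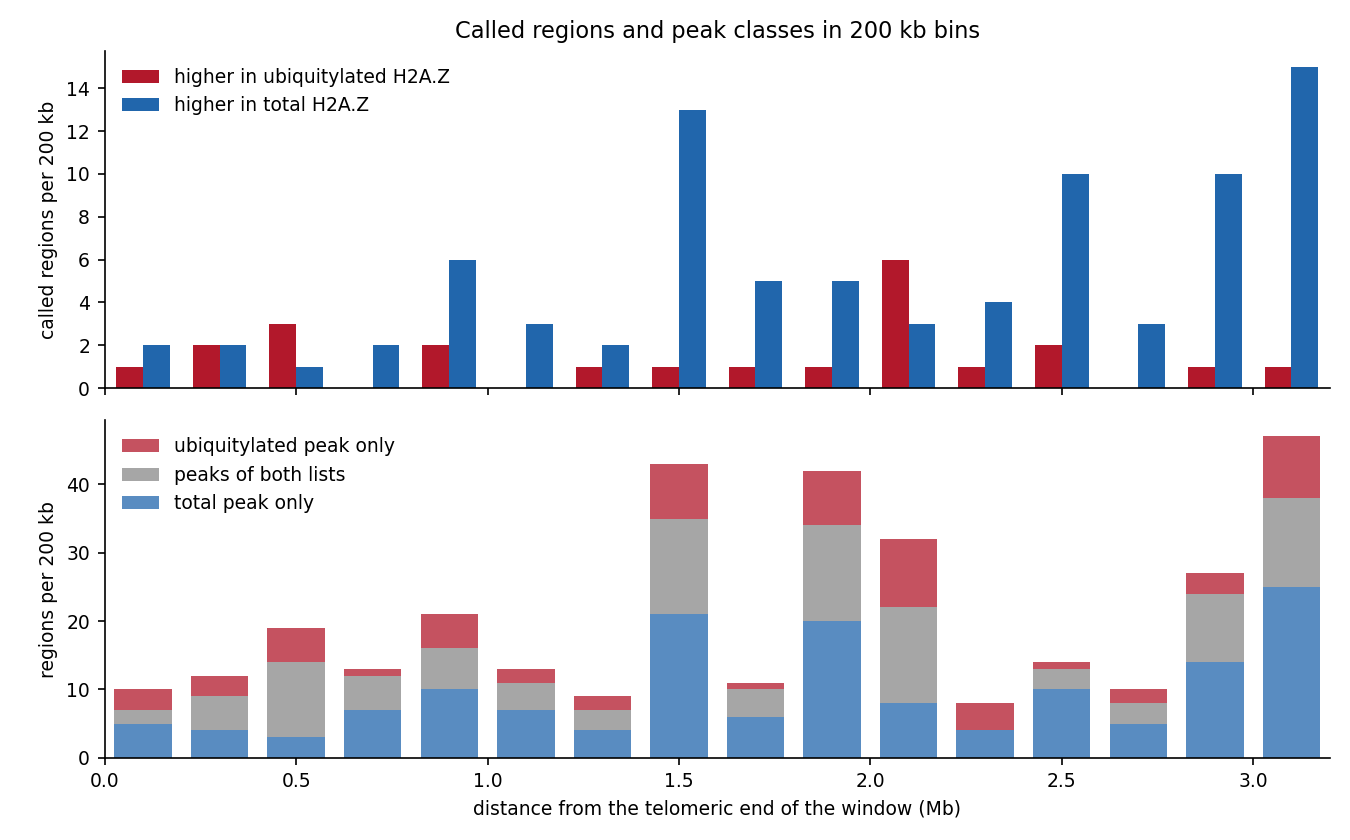
Called members by direction (top) and all members by peak class (bottom) in 16 consecutive bins of 200 kb, against the distance in Mb from the telomeric end of the window. Calls towards ubiquitylated H2A.Z outnumber those towards total H2A.Z in 2 bins, with 3 against 1 and 6 against 3, and the last bin has 1 against 15. With bins of 400 kb they outnumber them in none.

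By number of calls, the longest series towards ubiquitylated H2A.Z without an opposite call lay mostly in the stretch from 27.7 to 27.9 Mb. It held 6 called members from chr6:27782898 to chr6:27935193 (152 kb, with a median of 0.67 on the log2 scale in the authors' deposited table) among 15 members in all. In order, they were chr6:27782898-27783269, chr6:27795726-27796239, chr6:27831797-27832480, chr6:27834492-27835479, chr6:27839692-27840068 and chr6:27934573-27935193. Of the 9 other members of this span, 4 had peaks of both lists, 2 a ubiquitylated peak only and 3 a total H2A.Z peak only, and all 9 were in neither differential list. The region chr6:27834492-27835479, 988 bp wide, was the second widest member of the window and had only 0.43 (FDR 0.02) in the authors' deposited table. The next by number of calls held 4 called members from chr6:26045633 to chr6:26271599 (226 kb) among 24 members, with a median of 0.63 in the authors' deposited table.

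Several series towards total H2A.Z held more calls, in a window with 23 calls towards ubiquitylated and 86 towards total H2A.Z. The one with the most held 15 called members from chr6:28676903 to chr6:28834781 (158 kb) among 45 members, with -0.99 as the median log2 change in the authors' deposited table. Another held 12 from chr6:27181994 to chr6:27343019 (161 kb) among 32 members, with -1.14. From chr6:28047970 to chr6:28220638, 11 of 13 members were called towards total H2A.Z, with a median of -1.15 in the authors' deposited table. A further 11 of 23 members were so called from chr6:28367142 to chr6:28603904, with -0.88. Each series starts and ends at a called member and stops before an opposite call, which raises the share called inside it. Over the window 26.0% of members were called towards total H2A.Z, and over the series 12.1% of regions.

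Dense bins differed in how many of their members were called. The bin from 27.1 to 27.3 Mb held 43 members of 286 bp median width, 21 of them with a total H2A.Z peak only, and 1 call towards ubiquitylated beside 13 towards total H2A.Z. The called regions included adjoining ones, such as chr6:27255947-27256192 and chr6:27256326-27256510, with log2 fold changes of -1.14 and -1.47 in the authors' deposited table. The bin from 27.5 to 27.7 Mb was nearly as dense, with 42 members and 20 total H2A.Z peaks alone, but only 1 was called towards ubiquitylated H2A.Z and 5 towards total. By contrast, the bin from 28.1 to 28.3 Mb was not dense, with 14 members where the median bin held 13.5. Of these 14, 12 were called, 2 towards ubiquitylated H2A.Z and 10 towards total. For comparison, 32.9% of the window's members and 21.5% of all regions were called. The choice of these bins rested on their known counts, and the contrast was not tested.

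Members called towards total H2A.Z mostly had a nearest called neighbour of the same direction, whereas most called towards ubiquitylated H2A.Z did not. The nearest called member had the same direction for 79 of 109 (72.5%), against 69.1% in the rest of chromosome 6 and 76.0% outside the window. Of the 23 called towards ubiquitylated H2A.Z, 8 had such a neighbour (34.8%), against 31.0% in the centromeric flank, 47.6% in the rest of chromosome 6 and 71.7% outside the window. Of the 86 called towards total 71 had (82.6%), near the 85.0%, 79.3% and 79.3% of the same stretches. These shares also move with how numerous each direction is, and calls towards total H2A.Z were the more numerous. Among 37 pairs of consecutive called members less than 10 kb apart, 28 had the same and 9 had opposite directions.

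The closest opposite pair lay 1465 bp apart. It consisted of chr6:28280901-28281091, with a log2 fold change of 1.56, and chr6:28279237-28279435, with -0.93, in the authors' deposited table. Another pair 2462 bp apart joined chr6:26017482-26018277 (0.79) and chr6:26020740-26021140 (-0.58) in the authors' deposited table. At 2864 bp, chr6:27178704-27179129 (0.76) faced chr6:27181994-27182217 (-1.62), the second largest fall of the window, in the authors' deposited table. At 3528 bp, chr6:28607433-28608092 (0.73) faced chr6:28603650-28603904 (-0.94) in the authors' deposited table.

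Members had nearly the median width of regions elsewhere, and broad regions were rare. The median was 314 bp (quartiles 223 and 418 bp), against 313 bp outside the window (219 and 489 bp) and 287 bp in the rest of chromosome 6. Only 1 of 331 members (0.302%, interval 0.0534 to 1.69%) reached 1000 bp, against 3.02% of regions in the rest of chromosome 6 and 4.93% outside the window. It was chr6:26234170-26235176, 1007 bp wide, with peaks of both lists and in neither differential list. At least 500 bp were reached by 53 members (16.0%, 12.5 to 20.3%), against 12.7% in the telomeric and 26.2% in the centromeric flank, 18.7% in the rest of chromosome 6 and 24.0% outside. The 5 widest members were this region, chr6:27834492-27835479, chr6:26613936-26614915, chr6:27279656-27280606 and chr6:28602548-28603433.

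Members higher in ubiquitylated H2A.Z were the wider ones, with a median of 514 bp (quartiles 410 and 678 bp). Those higher in total H2A.Z had a median of 334.5 bp (225 and 452 bp), and those in neither differential list 296.5 bp. Outside the window the medians were 507, 362 and 295 bp. Of the 23 members higher in ubiquitylated H2A.Z, 12 (52.2%) were at least 500 bp wide, against 16 of the 86 higher in total H2A.Z (18.6%). Outside the window these shares were 50.8% and 30.5%, so the share among members higher in ubiquitylated H2A.Z was close to that elsewhere. Only 1 of the 23 was narrower than 300 bp, whereas 38 of the 86 were. In the authors' deposited table, the calls towards total H2A.Z had a median of -1.02 on the log2 scale at these 38 narrow regions, -0.81 for 32 regions of 300 to under 500 bp and -0.95 for 16 wider ones, so width and change had no steady relation. Across the 86, Spearman's rho between width and the size of the change was -0.13, given as a description across regions that share libraries.

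**Figure D4:**
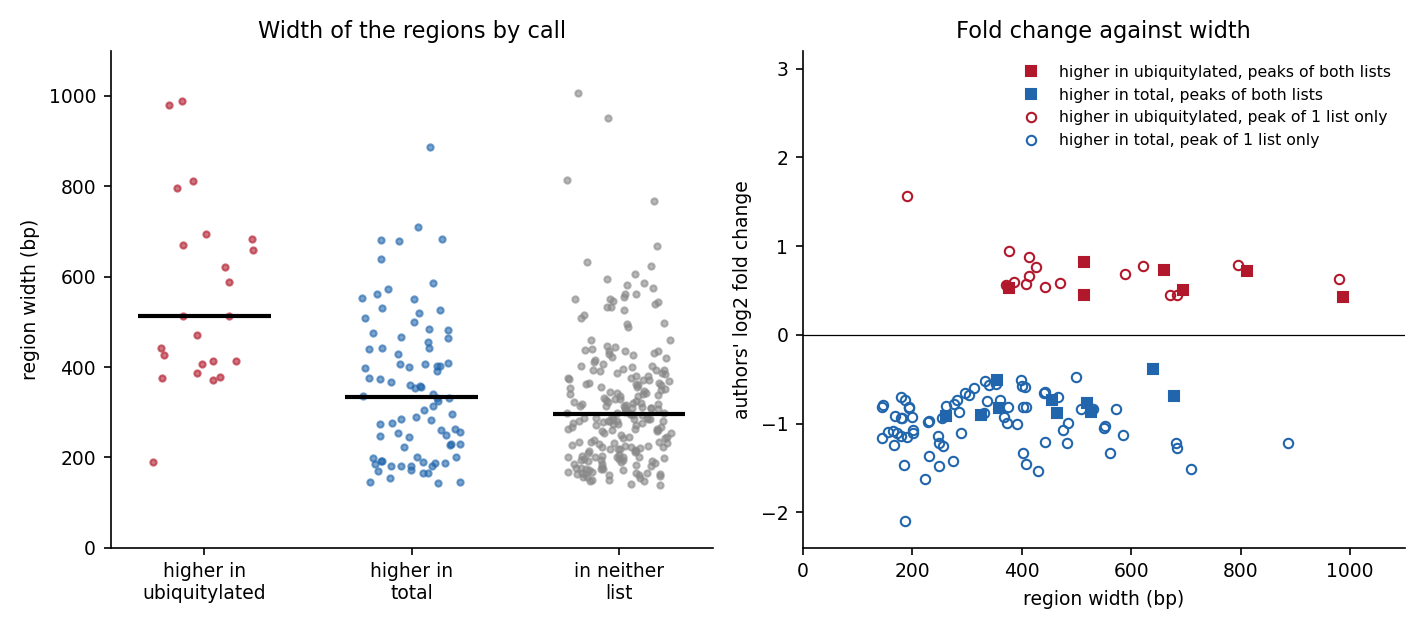
Width of the 331 members by call (left, each point 1 region, black bars the medians of 514, 334.5 and 296.5 bp) and the authors' log2 fold change of the 109 called members against width (right), with filled squares for regions with peaks of both lists. Regions above 0 lie at 372 bp or more with 1 exception at 191 bp, and regions below 0 reach down to 144 bp.

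Width also went with the chance that a peak of the total list alone was called. Of 95 such members under 300 bp, 37 (38.9%, interval 29.8 to 49.0%) were higher in total H2A.Z, and of 58 at 300 bp or more 39 were (67.2%, 54.4 to 77.9%). Outside the window the shares were 22.1% and 45.9%, and in the rest of chromosome 6 they were 22.8% and 48.8%. The centromeric flank came close to the window, with 29.3% of 82 narrower regions (20.5 to 39.9%) and 63.5% of 63 wider ones (51.1 to 74.3%). The telomeric flank had 42.3% of 26 (25.5 to 61.1%) and 33.3% of only 12 (13.8 to 60.9%).

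Peaks of the window repeated between replicates about as well as others. The median IDR was 0.00145 for 178 members with a ubiquitylated peak and 0.0028 for 264 members with a total H2A.Z peak, against 0.00134 and 0.00327 outside the window. Members with a ubiquitylated peak only had a median of 0.00355, above the 0.00226 of such regions outside. Members with a total H2A.Z peak only had 0.00284, below the 0.00404 outside. Among these last, the 76 called members had a median of 0.00212 and the 77 others 0.00436.

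The most repeatable member was chr6:27279656-27280606, which had the lowest IDR in both lists, 2.51e-07 for ubiquitylated and 7.07e-06 for total H2A.Z. It was 951 bp wide and in neither differential list, although chr6:27280738-27280892, starting 131 bp beyond its end, was higher in total H2A.Z (log2 fold change -1.10, FDR 0.00072 in the authors' deposited table). In the ubiquitylated list it was followed by chr6:28511385-28511892 (1.87e-06) and chr6:27482660-27483202 (6.67e-06), both also in neither differential list. In the total list it was followed by chr6:28414676-28415139 (7.96e-06) and chr6:28109323-28109583 (1.01e-05). Both of these carried a peak of each list and were called towards total H2A.Z, with log2 fold changes of -0.88 (FDR 1.5e-06) and -0.92 (FDR 0.00063) in the authors' deposited table.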

How the data were processed

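Per the submitters' processing notes, Bowtie, SAMtools, MACS2, edgeR and the hg19 build were used; versions and settings: not given in the sources used here. For each pull-down the authors deposited a peak list with an IDR per peak, a value like a q-value, at most 0.05 per the file names, taken as joint for both replicates. The authors deposited, too, a list of differential regions for each direction, with an FDR of at most 0.05 and a fold change of ubiquitylated over total H2A.Z, taken as log2. Whether replicates were separate cultures is not in the labels, so the spread behind IDR and FDR may be technical.

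Starts were raised by 1 base, and peaks that overlapped or touched were merged. Each of the 42574 differential regions matched a merged region exactly. Merging and matching were tested on simulated data. No test was run here beyond the authors' FDR; shares have Wilson 95% intervals. The flanks are the adjoining 3.2 Mb on each side. Named regions are the 8 of lowest FDR and the 5 of largest change in each direction, the 5 widest, the 3 of lowest IDR in each list, the longest series, the regions at the window's ends and the bins of most and fewest members or calls; other stretches and pairs were chosen after their values were seen. The window, its settings and these rules were chosen with earlier results of these data known. Tools were Python 3.11.15 with numpy 2.4.6, pandas 2.3.3 and scipy 1.17.1, and matplotlib 3.10.9 for plots. Sequences of the regions and their gene context were not analysed here.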

Additional observations from a re-analysis of the deposited data

How the results depend on the processing

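No paired analysis was possible because each region has a single value over both replicates, and a replicate could not be left out either. Alternatives that need an hg19 genome or annotation were not run. Of 30 alternatives over 13 results, 15 stayed within the counting interval or within 1.5 times the count. Calls towards ubiquitylated H2A.Z numbered 23; they were 11 with an FDR under 0.01, 1 at 2-fold or more and 7 with peaks of both lists only. Calls towards total H2A.Z numbered 86; they were 33 at 2-fold or more, 10 with peaks of both lists only and 55 in a window shortened by 500 kb at each end, which held 220 members. The share of calls towards ubiquitylated H2A.Z, 21.1%, was 2.94% at 2-fold or more, 41.2% with peaks of both lists only and 13.0% without the bins from 25.9 to 26.3 and 27.7 to 27.9 Mb, an alternative chosen after seeing the data. With an IDR under 0.01 in both lists, members with a ubiquitylated peak only made up 25.9% and members with peaks of both lists 25.9%. The median width was 376 bp with peaks of both lists only. With an FDR under 0.01 the authors' deposited table gave median log2 changes of 0.77 for calls towards ubiquitylated and -1.07 for calls towards total H2A.Z. Fewer regions enter each of these alternatives, and the cause of the changes in shares was not tested. Under each of the alternatives run on the calls, more members were higher in total than in ubiquitylated H2A.Z. The alternatives reuse the same calls, and the whole series has this direction too, with 23960 regions against 18614. With peaks of both lists only, the 41.2% was near the 44.2% of such called regions in the series. Unknown depth limits what absence from a list can show.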
